A study of Mus musculus with 20 samples.

Results

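Tumors injected with adenoviral vectors for p19Arf and IFNbeta together (p19Arf+IFNbeta, called the combination below) were compared with tumors injected with the p19Arf vector and no IFNbeta vector (p19Arf). The sample titles chose the arrays, 5 per group and 10 of the 20 in the series, and 19938 genes were measured on each, by 1 probe set per gene. The other 10 arrays were 5 tumors given the IFNbeta vector and 5 given a vector for enhanced green fluorescent protein (eGFP), the vector control. All 4 groups were implants of LLC-1, the Lewis lung carcinoma line, in C57Bl/6 mice, an inbred strain with a working immune system. Each tumor received 5 injections of 25 µl, 48 h apart, each with a load of 8 in log10 infectious units. The labels do not say how the load was shared between the vectors of the combination, which promoters drive the transgenes, or the age or sex of the hosts. Each array of a group has its own tumor number in the labels, and nothing says whether tumors shared a mouse, so the p-values measure only the spread between these tumors.

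p19Arf is made from an alternative reading frame of the Cdkn2a locus. It binds Mdm2, the ubiquitin ligase that marks p53 for destruction, and so frees p53 to raise its targets in cell-cycle arrest and cell death. Interferon beta is a type I interferon: through the receptor Ifnar1/Ifnar2 and the kinases Jak1 and Tyk2 it turns on antiviral genes, and it can draw in and activate immune cells. The comparison asks how tumors given the IFNbeta vector with p19Arf differed from tumors given p19Arf without it.

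Values are log2 expression, so a difference of 1 is a 2-fold change, and every difference is the combination minus p19Arf. Errors are the standard error (SE) of limma's linear model. The 95% intervals come from the same model, gene by gene, and are not adjusted for the number of genes. They are printed only for genes picked by their values, so an interval without 0 is no test. Over all genes the 10 arrays correlated at 0.967 to 0.995 within a group and at 0.969 to 0.997 between the groups. The spread of the values on an array was 2.06 ± 0.05 (SD, n = 5) in the combination and 2.06 ± 0.05 (SD, n = 5) in p19Arf, an exact permutation p of 0.881. Krt8, Krt18 and Epcam, genes of simple epithelium, read 7.85, 7.27 and 6.49 in the combination and 7.78, 7.29 and 6.45 in p19Arf, and without detection calls no gene can be called absent. The tissue is bulk, so fewer cells of a type and less RNA per cell cannot be told apart.

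The groups differed little. No gene passed limma's test at an adjusted p under 0.05 (0 of 19938, 0%), and the smallest Benjamini-Hochberg adjusted p was 0.998. At an unadjusted p under 0.05 there were 612 genes (3.07%), 365 higher in the combination (1.83%) and 247 lower (1.24%). With each array's median set equal, the same count was 680, split into 257 higher and 423 lower, so the balance of directions turned with the centring. In 51 genes (0.256%) the 5 arrays of a group all lay beyond the 5 of the other, 32 higher (0.16%) and 19 lower (0.0953%). Random labels would set the groups apart in a share of 0.00794 of genes, and would put a share of 0.05 under that p. Each observed share was smaller, so groups that do not overlap are only a description of a gene below. Only 2 genes, Il1a and Ccl3, differed by at least 1 on the log2 scale. The median difference over all genes was -0.01, and 46.9% of genes were higher in the combination.

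The array labelled p19Arf replicate 2 moved these counts most. Without it, 1922 genes had an unadjusted p under 0.05 and the groups were apart in 487 genes, 408 higher and 79 lower, against 79 to 152 genes apart with any other array left out. Still no gene passed, and the smallest limma adjusted p without it was 0.446. The smallest limma adjusted p over every array left out in turn was 0.0624, for Ccl3 without replicate 3 of the combination. In what follows "higher" and "lower" describe group means, and no gene named passed the adjusted test. Leaving out a single array moved the difference by over 1.5 times for 86 of the 157 genes chosen by the naming rule, so single values below are loosely fixed.

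**Figure D1:**
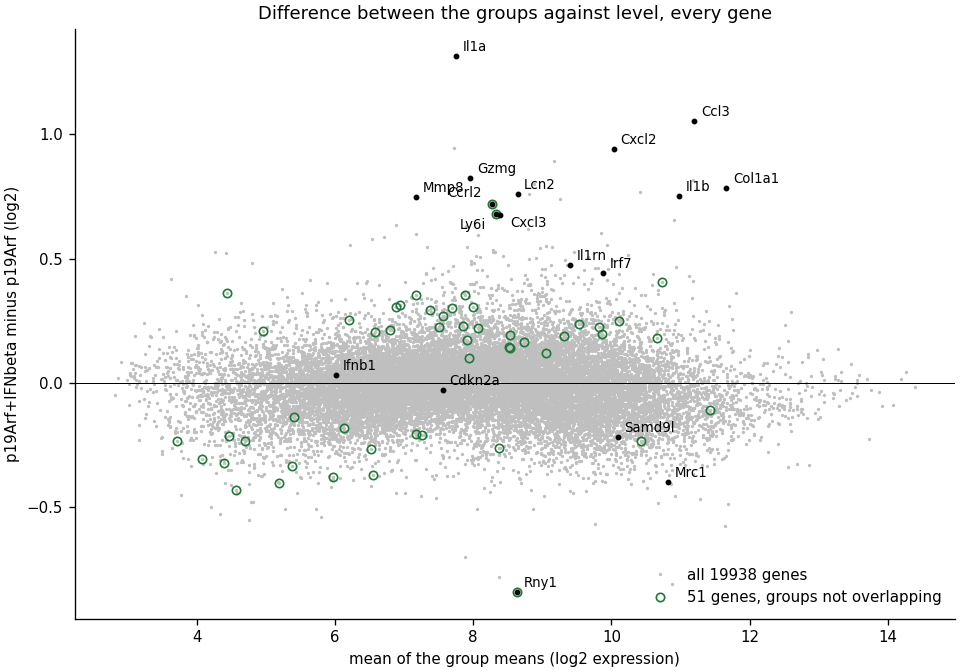
Each grey point is 1 of 19938 genes, with the mean of the group means on the x axis (log2 expression) and the combination minus p19Arf on the y axis (log2); green rings mark the 51 genes whose groups did not overlap. Inflammatory genes such as Il1a (1.32), Ccl3 (1.05) and Cxcl2 (0.94) lie highest, Rny1 (-0.84) lowest, and the vector genes Cdkn2a and Ifnb1 lie near 0.

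The genes the vectors carry did not separate the groups. Cdkn2a, whose locus encodes both p16Ink4a and p19Arf, read 7.47, 7.25, 7.63, 7.82 and 7.57 in replicates 1 to 5 of the combination and 7.35, 7.42, 7.70, 7.81 and 7.61 in those of p19Arf. Both groups received p19Arf, and the difference was -0.03 (SE 0.10), with a 2-sided exact permutation p of 0.825. Ifnb1, interferon beta itself, read 5.95, 5.90, 6.40, 6.07 and 5.81 against 6.00, 5.61, 6.16, 6.17 and 6.04. The ranges overlapped, and the difference was 0.03 (SE 0.13) with an exact permutation p of 0.841, where 0.00794 is the smallest that 5 arrays against 5 allow. The sources used here do not say whether the probe sets match the vectors' transcripts, so these values are no check of the labels.

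Several chemokines and interleukin-1 family genes were among the genes with large differences. Ccl3, a chemokine that draws monocytes and other leukocytes, had the smallest p of all genes. It read 12.04, 11.53, 10.98, 12.55 and 11.51 in the combination and 10.72, 11.15, 10.80, 10.46 and 10.21 in p19Arf. In 4 of 5 combination arrays it lay above every p19Arf array; replicate 3 lay inside their range. The difference was 1.05 (SE 0.21, 95% interval 0.61 to 1.50), a 2.08-fold higher mean, and leaving out each array in turn kept it between 0.85 and 1.24. Its close relative Ccl4 read 7.81, 7.51, 7.74, 8.61 and 7.63 against 7.31, 7.62, 7.39, 7.43 and 7.30, a difference of 0.45 (SE 0.15) in which replicate 4 of the combination stood far above the rest.

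Cxcl2 and Cxcl3 attract neutrophils through Cxcr2. Cxcl3 read 8.89, 8.56, 8.20, 9.43 and 8.53 in the combination and 8.11, 8.40, 8.01, 7.96 and 7.76 in p19Arf, a difference of 0.68 (SE 0.16), with 4 of 5 combination arrays above all of p19Arf. Cxcl2 read 11.26, 10.01, 9.86, 11.68 and 9.72 against 9.86, 10.26, 9.40, 9.38 and 8.93, a difference of 0.94 (SE 0.31). Only replicates 1 and 4 of the combination exceeded every p19Arf array for Cxcl2, and the other 3 lay within the p19Arf range. Ccrl2, a non-signalling receptor that binds the chemoattractant chemerin, had groups that did not overlap. It read 9.39, 8.41, 8.30, 8.86 and 8.21 against 8.09, 8.20, 8.04, 7.70 and 7.53, a difference of 0.72 (SE 0.18, 95% interval 0.34 to 1.10); the gap between the lowest combination array and the highest p19Arf array was narrow.

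The upstream sequences of 4 of these genes, and of the interferon gene Trim30a, are shown because they are the stretches where inducible factors commonly act. They are the 250 bases before the start site from RefSeq (GRCm38.p6), 5′ to 3′ on the gene's strand. Capitals mark matches to the NF-kB consensus in the chemokine genes and, in Trim30a, to the core of the interferon-stimulated response element (GAAA, any 2 bases, then GAAA, here on the opposite strand). Ccl3 lies at chr11:83649379-83649628 on the minus strand, Cxcl3 at chr5:90785851-90786100 and Cxcl2 at chr5:90903649-90903898 on the plus strand, Ccrl2 at chr9:111057519-111057768 and Trim30a at chr7:104465194-104465443 on the minus strand.
Ccl3: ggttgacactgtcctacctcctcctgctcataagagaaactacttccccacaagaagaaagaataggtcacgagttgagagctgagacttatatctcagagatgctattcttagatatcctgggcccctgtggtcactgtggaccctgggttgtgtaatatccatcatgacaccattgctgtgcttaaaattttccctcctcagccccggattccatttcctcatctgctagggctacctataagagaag
Cxcl3: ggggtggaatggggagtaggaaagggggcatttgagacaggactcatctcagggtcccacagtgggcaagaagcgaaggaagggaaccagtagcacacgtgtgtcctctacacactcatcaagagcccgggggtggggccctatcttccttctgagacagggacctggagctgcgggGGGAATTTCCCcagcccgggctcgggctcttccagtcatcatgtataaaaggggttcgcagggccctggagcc
Cxcl2: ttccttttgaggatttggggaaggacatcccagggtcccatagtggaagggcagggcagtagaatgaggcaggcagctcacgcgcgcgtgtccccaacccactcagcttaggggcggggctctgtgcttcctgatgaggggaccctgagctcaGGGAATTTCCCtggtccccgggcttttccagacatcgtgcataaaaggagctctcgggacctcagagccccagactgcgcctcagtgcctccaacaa
Ccrl2: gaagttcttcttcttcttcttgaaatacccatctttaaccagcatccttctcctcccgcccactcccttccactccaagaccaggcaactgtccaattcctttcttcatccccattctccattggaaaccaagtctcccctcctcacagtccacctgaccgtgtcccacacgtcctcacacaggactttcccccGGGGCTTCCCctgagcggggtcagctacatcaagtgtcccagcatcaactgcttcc
Trim30a: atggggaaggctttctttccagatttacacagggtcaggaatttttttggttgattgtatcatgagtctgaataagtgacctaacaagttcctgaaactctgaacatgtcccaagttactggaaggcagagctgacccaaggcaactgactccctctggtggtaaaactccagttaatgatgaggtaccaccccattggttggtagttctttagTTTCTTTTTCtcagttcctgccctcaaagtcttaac

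Cxcl3 held 2 overlapping NF-kB consensus matches that began 73 and 72 bases before the start. Cxcl2 held 2 that began 97 and 96 bases before its start. The printed Ccrl2 promoter held 1 at 56 bases, and the other listed promoters of Ccrl2 held none. Ccl3 held none. Both strands were searched over 300-base promoters, and 4.51% of the 32851 promoters in the table held this consensus. Among the named chemokine and cytokine genes plus Ccrl2, 3 of 8 genes, or 3 of 12 listed promoters, had a match. So did 4 of 21 promoters of 16 of the named genes whose groups did not overlap, those of Ccrl2, Plekhg1 and the lower genes Zfp850 and Sema4c. The Plekhg1 match began 13 bases after the start. Named genes without a listed promoter, and any on 1 chromosome that was left out, are not in these counts. The NF-kB motif and Ccrl2 were added to the search after the expression values were seen. The interferon core was found in 1 of 3 named interferon genes with a promoter, Trim30a. Counted by promoter that was 2 of 4, each of Trim30a, against 3.44% of all promoters. The match began 36 bases before the start in the printed Trim30a promoter and 2 bases after it in the other listed one. The gamma-activated site (TTCNNNGAA) was in none of those 3 genes and in 8.3% of all promoters. A match is only a description of these letters.

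Interleukin-1 genes had the same high arrays. Il1a, an alarmin and pro-inflammatory cytokine, had the largest difference of all genes, at 1.32 (SE 0.40). It read 9.85, 7.80, 7.15, 9.64 and 7.59 in the combination and 7.33, 7.70, 7.31, 6.77 and 6.34 in p19Arf, so replicates 1 and 4 stood far above the other combination arrays. Il1b read 11.91, 10.95, 10.83, 12.22 and 10.83 against 10.66, 11.12, 10.54, 10.48 and 10.18, a difference of 0.75 (SE 0.24). Again only replicates 1 and 4 lay above every p19Arf array. Il1rn, the natural antagonist of the interleukin-1 receptor, read 9.87, 9.64, 9.46, 9.93 and 9.28 against 9.27, 9.19, 9.28, 8.98 and 9.08, a difference of 0.47 (SE 0.12) with smaller spread. Tnf read 9.14, 8.70, 8.68, 8.91 and 8.33 against 8.20, 8.42, 8.37, 8.68 and 7.99, a difference of 0.42 (SE 0.16). Ptgs2, the inducible cyclooxygenase, differed by 0.52 (SE 0.20), and Nfkbiz, a nuclear cofactor of NF-kB, by 0.33 (SE 0.14).

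**Figure D2:**
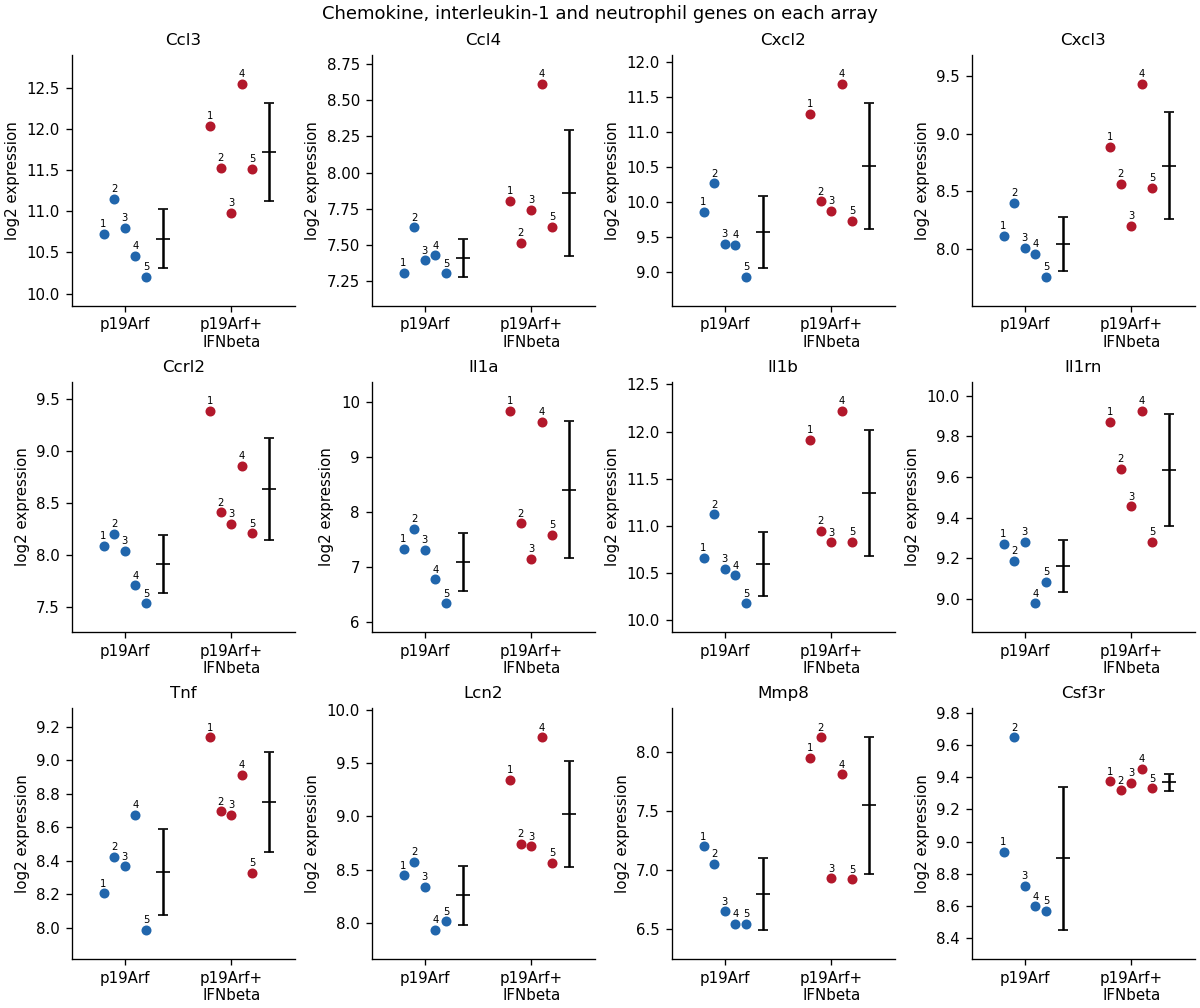
Log2 expression of 12 chemokine, interleukin-1 and neutrophil genes on each array, p19Arf in blue and the combination in red, with the replicate number above each point and the group mean ± SD (n = 5) in black. Replicates 1 and 4 of the combination are the highest for Cxcl2, Il1a and Il1b, and of these 12 genes only Ccrl2 has groups that do not overlap.

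Over whole lists the shift was uneven. Of 29 chemokines, 16 were higher in the combination, with a median difference of 0.04 beside -0.01 over all genes. An unadjusted p under 0.05 was reached by 5 higher chemokines, Ccl3, Cxcl2, Cxcl3, Ccl4 and Cxcl10, and by 1 lower, Ccl8, where 1.83% and 1.24% of all genes did so. Without p19Arf replicate 5, or replicate 1 or 4 of the combination, no chemokine was lower at that p, and without p19Arf replicate 2 or replicate 3 of the combination 2 were. Ccl8, another attractant of monocytes, read 10.34, 10.65, 10.61, 10.08 and 10.62 against 11.18, 10.74, 10.75, 10.39 and 11.03, a difference of -0.36 (SE 0.15). The neutrophil attractant Cxcl1 (0.16, SE 0.15) and the monocyte attractant Ccl2 (0.03, SE 0.12) differed little. Of 26 NF-kB and inflammatory cytokine genes, 22 were higher, with a median of 0.15, and 6 of these had an unadjusted p under 0.05. That count was 12 without p19Arf replicate 2 and 3 without p19Arf replicate 5. Il12b, a subunit of interleukin-12, had the lowest value of the list at -0.22.

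Genes of neutrophils, the cells that Cxcl2 and Cxcl3 attract, went in both directions. Lcn2, which withholds iron from bacteria, read 9.34, 8.74, 8.72, 9.74 and 8.56 in the combination and 8.45, 8.57, 8.34, 7.93 and 8.01 in p19Arf, a difference of 0.76 (SE 0.22) with 4 of 5 arrays above all of p19Arf. Mmp8, neutrophil collagenase, read 7.95, 8.13, 6.93, 7.81 and 6.92 against 7.20, 7.05, 6.65, 6.55 and 6.55, a difference of 0.75 (SE 0.23). Clec4e, a receptor for fungal and mycobacterial glycolipids, differed by 0.62 (SE 0.25), Cxcr2 by 0.53 (SE 0.23) and the decoy receptor Il1r2 by 0.50 (SE 0.20). Csf3r, the receptor for granulocyte colony-stimulating factor, read 9.38, 9.32, 9.37, 9.45 and 9.33 against 8.94, 9.65, 8.72, 8.60 and 8.57. Its combination arrays were tightly grouped, and p19Arf replicate 2 alone lay above them.

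Other neutrophil genes did not move with these. S100a9, a calcium-binding protein abundant in neutrophils, differed by 0.25 (SE 0.24; 0.08 without replicate 4 of the combination), Ly6g by -0.03 (SE 0.25) and Mmp9 by -0.47 (SE 0.29). Of 18 neutrophil markers 13 were higher, the median was 0.16, and 6 higher members had an unadjusted p under 0.05. Without replicate 1 of the combination 3 did, and without p19Arf replicate 5 only 2. The mean level of the 18 markers ranged from 7.83 to 8.40 in the combination and from 7.67 to 8.02 in p19Arf, so the groups overlapped. The part of neutrophil number in the chemokine and interleukin-1 values was not tested.

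Macrophage and monocyte markers went both ways. Of 22 markers 11 were higher, with a median of 0.002; 7 were higher without replicate 1 of the combination or p19Arf replicate 2, and 17 without replicate 4 of the combination. Mrc1, the mannose receptor of alternatively activated macrophages, read 10.71, 11.01, 10.64, 10.19 and 10.53 in the combination and 11.20, 10.87, 10.90, 10.73 and 11.38 in p19Arf. That difference of -0.40 (SE 0.15) put 4 of 5 combination arrays below every p19Arf array. Cd163, the haptoglobin-haemoglobin scavenger receptor, was also lower (-0.31, SE 0.14). Cd14, a coreceptor for lipopolysaccharide, was higher at 0.40 (SE 0.17), and so was Nos2, inducible nitric oxide synthase, at 0.33 (SE 0.18). Adgre1, which encodes F4/80, ranged from 9.58 to 10.89 in the combination and from 9.90 to 10.72 in p19Arf, a difference of -0.09 (SE 0.20) whose sign turned with some arrays left out.

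Type I interferon response genes were only slightly higher in the combination. Of 33 measured, 25 were higher and the median difference was 0.08; 4 higher genes and 1 lower had an unadjusted p under 0.05. The count of 4 was unsteady: it was 9 without p19Arf replicate 2, 2 without p19Arf replicate 3 and without replicate 2 or 4 of the combination, 1 without p19Arf replicate 4 and without replicate 3 of the combination, and 0 without p19Arf replicate 5. Irf7, the factor that amplifies interferon production, read 9.99, 9.96, 10.41, 10.34 and 9.79 in the combination and 9.75, 10.27, 9.61, 9.52 and 9.12 in p19Arf, a difference of 0.44 (SE 0.20). Zbp1, a sensor of Z-form nucleic acid, read 9.94, 10.22, 10.31, 10.26 and 9.99 against 9.86, 10.12, 9.76, 9.65 and 9.26, a difference of 0.41 (SE 0.15). Trim30a, an interferon-induced TRIM protein, read 11.06, 11.09, 11.13, 10.99 and 10.93 against 11.02, 11.002, 10.77, 10.62 and 10.59, a difference of 0.24 (SE 0.11).

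Several familiar members did not follow. Usp18, which switches off signalling at Ifnar2, read 9.63, 10.01, 9.89, 9.58 and 9.44 against 10.09, 9.72, 9.89, 9.43 and 9.28, a difference of 0.03 (SE 0.17). Ifit3, an antiviral RNA-binding protein, differed by 0.19 (SE 0.19) and the antiviral GTPase Mx1 by 0.15 (SE 0.22). Samd9l, an interferon-inducible gene that restricts growth, was lower: it read 10.03, 10.23, 9.94, 9.75 and 9.96 against 10.33, 10.13, 10.19, 10.02 and 10.33, a difference of -0.22 (SE 0.09). The mean level of the 33 genes overlapped between the groups, from 9.46 to 9.75 in the combination and from 9.25 to 9.74 in p19Arf, where replicates 4 and 5 were the low ones.

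The same vector can be followed against the control, in the other 10 arrays. IFNbeta minus eGFP had a median of 0.37 over the same 33 genes, with 32 of 33 higher (8817 of 19938 over all genes), against 0.08 for the combination minus p19Arf. The latter ranged from 0.04, without p19Arf replicate 4, to 0.14, without p19Arf replicate 1, and 17 to 29 of the 33 were higher with an array left out. Of the IFNbeta arrays, replicate 3 had a mean level of 10.39 over these 33 genes. The other IFNbeta arrays ranged from 9.755 to 9.96 and the eGFP arrays from 9.51 to 9.64. Single arrays were not left out of IFNbeta minus eGFP, so the pull of replicate 3 on its 0.37 was not measured. Usp18 differed by 0.59 there, Ifit3 by 0.57, Mx1 by 0.59, Irf7 by 0.56 and Zbp1 by 0.38. The interaction is the combination minus p19Arf less IFNbeta minus eGFP, and tests whether these differences are unequal. The labels do not give the load of each vector in the combination. A changed effect and a changed vector dose therefore cannot be told apart by this interaction. No gene passed it in limma (0 of 19938, 0%; smallest adjusted p 1), and 260 genes had an unadjusted p under 0.05 (1.3%), among them 5 of the 33. It lay below 0 for 30 of the 33, with a median of -0.27. Over all genes 9520 of 19938 lay below 0, with a median of 0.01. The interaction also lay below 0 for 29 of 30 cell-cycle genes (median -0.19) and 18 of 20 skeletal muscle markers (-0.52). The same held for 19 of 21 stress response genes (-0.15), so a lean below 0 was not particular to interferon genes. Other lists leaned the other way, with 2 of 18 neutrophil markers and 6 of 26 NF-kB and inflammatory cytokine genes below 0. Samd9l, named for its low value in the combination, had an interaction of -0.41 (SE 0.13), given as a description with no test.

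**Figure D3:**
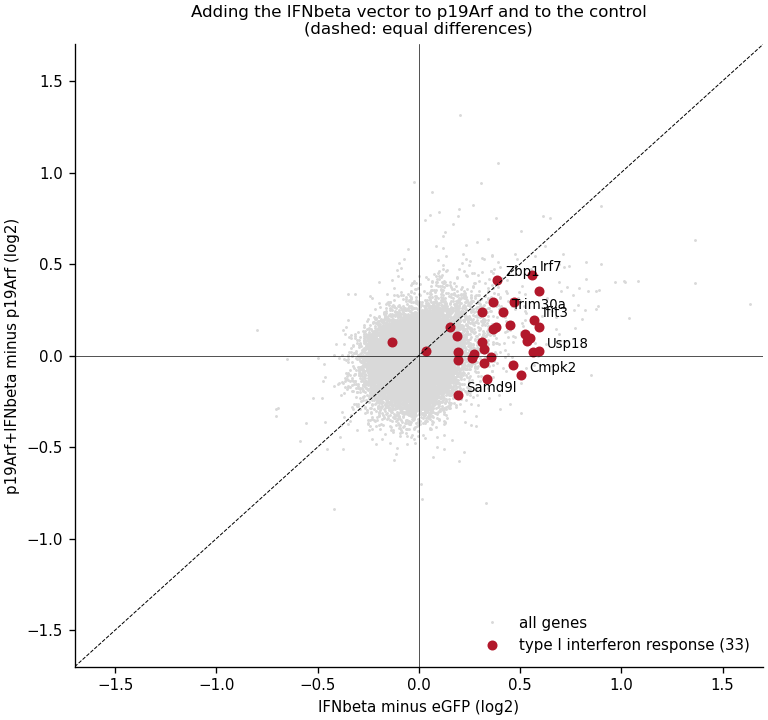
Each point is a gene, with IFNbeta minus eGFP on the x axis and the combination minus p19Arf on the y axis (both log2), the 33 type I interferon response genes in red and all genes in grey; the dashed line marks equal differences. Of the red points 30 lie below the dashed line, and the pairs of groups share no array. The labels do not give the load of each vector in the combination.

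The inflammatory genes named above were chosen for their combination minus p19Arf value, which the interaction contains, so their interactions are given as a description with no test. IFNbeta minus eGFP was 0.39 for Ccl3, 0.13 for Cxcl3, 0.20 for Il1a, 0.17 for Ccrl2 and -0.08 for Tnf, and 0.31 for Cxcl2, 0.38 for Il1b, 0.20 for Il1rn and 0.09 for Ccl4. The interaction was 0.66 (SE 0.30) for Ccl3, 0.55 (SE 0.23) for Cxcl3, 0.55 (SE 0.26) for Ccrl2, 1.12 (SE 0.57) for Il1a and 0.50 (SE 0.23) for Tnf. It was 0.63 for Cxcl2, 0.37 for Il1b, 0.28 for Il1rn and 0.36 for Ccl4. Over all 29 chemokines its median was 0.03, with 12 below 0. For Lcn2 and Mmp8 the 2 differences were close, at 0.61 and 0.65 in the IFNbeta tumors, with interactions of 0.15 (SE 0.31) and 0.10 (SE 0.32).

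Among the interferon receptor and JAK-STAT genes, 10 of 13 were higher with a median of 0.06. With an array left out, 7 to 13 were higher and the median ranged from 0.02 to 0.11. Socs3, a feedback inhibitor of cytokine receptors, read 10.06, 10.03, 9.92, 10.15 and 9.75 in the combination and 9.60, 9.77, 9.79, 9.63 and 9.51 in p19Arf, a difference of 0.32 (SE 0.11) that a dimmer probe set of the gene gave as 0.18. Only replicate 5 of the combination lay within the p19Arf range. Stat2 differed by 0.24 (SE 0.18), Irf9 by 0.15 (SE 0.10) and Ifnar1 by -0.03.

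Genes tied to interferon gamma were mostly higher. Of 18, 16 were higher, the median was 0.18, and 7 had an unadjusted p under 0.05; that count was 4 without replicate 2 of the combination, 3 without its replicate 3 and 2 without p19Arf replicate 5. Gbp5, a guanylate-binding protein that promotes inflammasome assembly, read 9.40, 9.42, 9.25, 9.22 and 8.95 in the combination and 9.02, 9.16, 8.93, 8.64 and 8.36 in p19Arf, a difference of 0.43 (SE 0.15). Cd274, the checkpoint ligand PD-L1, read 10.91, 10.67, 10.72, 11.28 and 10.52 against 10.34, 10.84, 10.45, 10.25 and 10.02, a difference of 0.44 (SE 0.17). Cxcl10, a chemokine for activated T cells and singled out after its values were seen, had groups that did not overlap: 10.77, 11.21, 11.05, 10.92 and 10.71 against 10.41, 10.68, 10.59, 10.25 and 10.69. Its difference was 0.41 (SE 0.18). Irf1 differed by 0.29 (SE 0.11) although p19Arf replicate 2, at 11.24, was above every combination array, and a second probe set gave 0.21. Ifng itself differed by 0.12, and Cxcl9 by 0.12.

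Of 14 genes for MHC class I and peptide loading, 8 were higher with a median of 0.03 that was below 0 without p19Arf replicate 2 or 5 or replicate 3 of the combination (lowest -0.03). Nlrc5, the transactivator of class I genes, differed by 0.29 (SE 0.20), and its 18 other probe sets were all higher too, by 0.13 to 0.54. Tap1, a subunit of the peptide transporter, differed by 0.22 (SE 0.13) and Tapbp, tapasin, by -0.08 (SE 0.09). Of 9 class II genes 7 were higher with a median of 0.15, which was 0.04 with 5 of 9 higher without replicate 1 of the combination and 0.08 without p19Arf replicate 2. H2-DMa, which loads peptide on class II, read 9.90, 9.82, 9.70, 9.56 and 9.84 against 9.46, 9.65, 9.61, 9.55 and 9.29, so 4 of 5 combination arrays lay above all of p19Arf, at a difference of 0.25 (SE 0.19).

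T-cell and cytotoxic genes were higher on most members, led by replicate 1 of the combination. Of 14 T-cell markers 13 were higher with a median of 0.21, which was 0.11 without that array. Cd8a read 9.33, 8.65, 9.14, 8.66 and 8.53 in the combination and 8.57, 8.59, 8.59, 8.46 and 8.41 in p19Arf, a difference of 0.34 (SE 0.15). Cd8b1 had 9.49 on replicate 1 of the combination and 8.31 to 8.54 on its other arrays, against 8.18 to 8.43 in p19Arf. Cd3e, a subunit of the T-cell receptor complex, differed by 0.24 (SE 0.14), and the adaptors Lat by 0.38 (SE 0.17) and Zap70 by 0.23 (SE 0.10). An unadjusted p under 0.05 was reached by 4 T-cell markers, by 0 without replicate 1 or replicate 3 of the combination, by 1 without p19Arf replicate 1 or 4 and by 2 without p19Arf replicate 5.

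All 12 cytotoxic effector genes were higher, with a median of 0.38. Gzmg, a granzyme, read 8.03, 7.97, 8.79, 9.09 and 7.98 in the combination and 7.90, 6.85, 7.16, 7.60 and 8.23 in p19Arf, a difference of 0.83 (SE 0.30). Gzmc read 6.42, 6.75, 7.40, 7.47 and 6.96 against 6.54, 6.28, 6.41, 6.54 and 6.29, a difference of 0.59 (SE 0.20). These granzymes peaked in replicates 3 and 4 of the combination. Granzymes b and a peaked elsewhere: Gzmb read 10.31, 9.30, 9.03, 8.54 and 8.12 against 8.80, 8.32, 8.77, 8.50 and 8.41, and Gzma read 9.36, 7.22, 7.10, 7.32 and 6.996 against 6.70, 7.20, 7.07, 7.50 and 7.46. The Gzma difference of 0.41 (SE 0.31) became -0.03 without replicate 1. Granzyme genes lie in a cluster of close relatives, and probe sets may read more than 1 of them. Without replicate 1 of the combination the list median was 0.18 and 11 of 12 were higher. The eGFP comparison gave a median of 0.30 for the same genes, with an interaction median of 0.06.

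Natural killer markers were 10 of 12 higher with a median of 0.08. Tbx21, the factor T-bet, differed by 0.30 (SE 0.13) and Ncr1, the receptor NKp46, by 0.09 (SE 0.10). Without replicate 1 of the combination 5 of 12 were higher, and without p19Arf replicate 2 there were 6. Checkpoint and regulatory T-cell genes were 13 of 17 higher with a median of 0.13. Il2ra, the interleukin-2 receptor alpha chain, differed by 0.35 (SE 0.17), while Pdcd1, which encodes PD-1, differed by -0.004 and Foxp3 by -0.10.

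**Figure D4:**
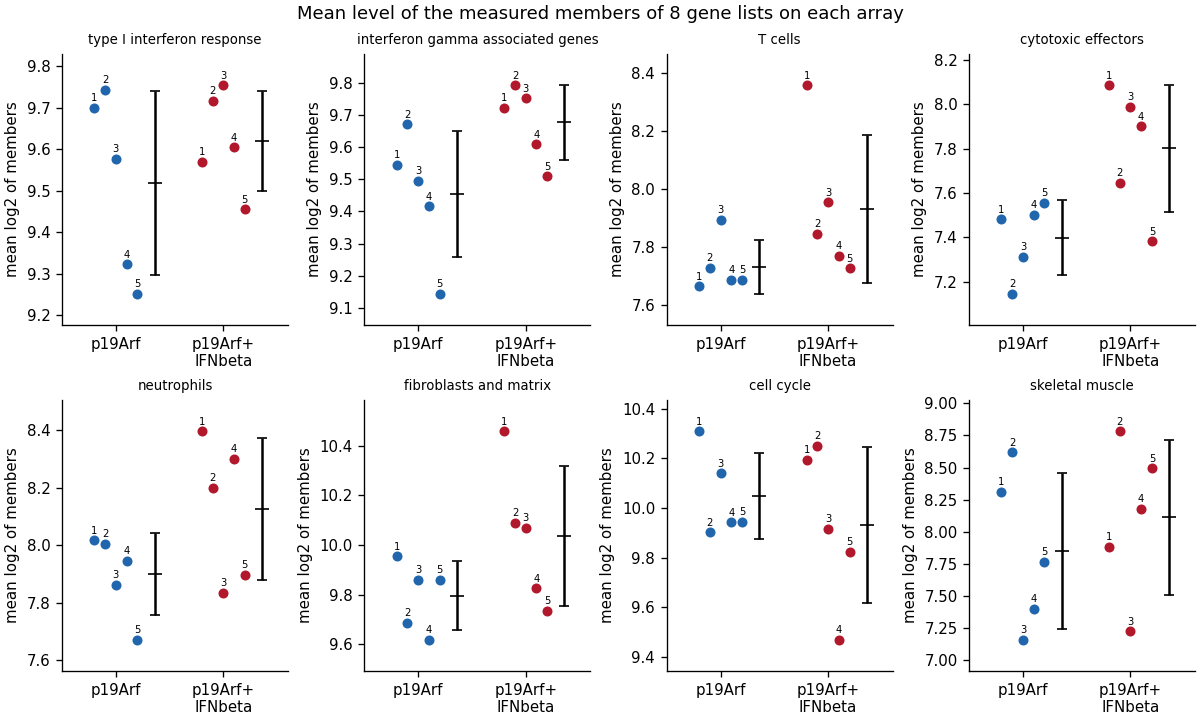
Mean log2 level of the measured members of 8 gene lists on each array, p19Arf in blue and the combination in red, with replicate numbers and the group mean ± SD (n = 5) in black. The groups overlap in every panel; replicate 1 of the combination is the highest array for T cells, cytotoxic effectors, neutrophils and fibroblasts and matrix.

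B and plasma cell markers depended on a tumor of the p19Arf group. Of 15, 4 were higher with a median of -0.09, and the mean level of p19Arf replicate 3 was 8.35 while the other p19Arf arrays ranged from 7.23 to 7.46. Ms4a1, which encodes CD20, read 5.43, 5.58, 5.62, 5.52 and 5.23 in the combination and 5.61, 5.52, 7.65, 5.88 and 5.26 in p19Arf, a difference of -0.51 (SE 0.36). Without that array 10 of 15 markers were higher and the median was 0.04; the count was 1 without replicate 3 and 7 without replicate 4 of the combination. Dendritic cell markers were 5 of 18 higher with a median of -0.07, and 3 without replicate 3 of the combination. Ccl22, a chemokine of dendritic cells, differed by -0.24 (SE 0.12) and Itgax, which encodes CD11c, by 0.23 (SE 0.15). Mast cell and eosinophil markers were 5 of 17 higher with a median of -0.08, and 3 without replicate 1 of the combination or p19Arf replicate 2. Fcer1a, a chain of the IgE receptor, differed by -0.27 (SE 0.13) and Hdc, histidine decarboxylase, by 0.42 (SE 0.22; 0.23 without replicate 4 of the combination).

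Both groups were given the p19Arf vector, and the p53 pathway was close to even between them. The action of p19Arf on p53 in these tumors was not tested. Of 26 p53 targets 17 were higher with a median of 0.04. Fas, a death receptor, differed by 0.31 (SE 0.15), Plk3, a stress kinase, by 0.29 (SE 0.14) and Btg2, an antiproliferative factor, by 0.29 (SE 0.16). Phlda3, an inhibitor of Akt, differed by -0.19 (SE 0.11), and Mdm2 by 0.07 (SE 0.11). IFNbeta minus eGFP gave 22 of 26 higher with a median of 0.15. Phlda3 was named for its combination minus p19Arf difference, so its interaction of -0.35 (SE 0.16) is a description with no test. Arf's partners and nucleolar genes were 11 of 20 higher with a median of 0.01. Nop56, a core protein of small nucleolar ribonucleoproteins, differed by 0.13 (SE 0.09) and Ubtf, the ribosomal RNA gene activator, by -0.13 (SE 0.10).

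Cell-cycle genes were mostly lower, and replicate 4 of the combination carried much of it. Of 30, 25 were lower and the median was -0.13; none had an unadjusted p under 0.05. Mki67, the proliferation antigen Ki-67, read 11.27, 11.28, 11.02, 10.40 and 11.002 in the combination and 11.38, 11.04, 11.26, 11.04 and 11.19 in p19Arf, a difference of -0.19 (SE 0.13). Top2a, topoisomerase II alpha, read 11.13, 11.19, 11.06, 10.35 and 10.60 against 11.40, 10.84, 11.05, 11.03 and 11.01, a difference of -0.20 (SE 0.14). Mcm6, a subunit of the replicative helicase, differed by -0.21 (SE 0.16). Without replicate 4 of the combination the list's median was -0.01 and 12 of 30 were higher, and 9 were higher without p19Arf replicate 1, 3 without p19Arf replicate 5 or replicate 1 of the combination, and 2 without p19Arf replicate 4.

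Cell death effectors were 11 of 21 higher with a median of 0.01. Casp8, the initiator caspase of death receptors, differed by 0.20 (SE 0.09), Casp4 by 0.19 (SE 0.12) and Ripk3, a kinase of necroptosis, by 0.15 (SE 0.09). Genes of the unfolded protein and integrated stress responses were 8 of 21 higher with a median of -0.06, which was above 0 without p19Arf replicate 1 or replicate 4 or 5 of the combination. Ppp1r15a, which ends the translation block, differed by 0.27 (SE 0.12), Atf3 by 0.28 (SE 0.18) and Ddit3 by 0.19 (SE 0.12). Without p19Arf replicate 5 Atf3 gave 0.12 and Ddit3 0.09, and without p19Arf replicate 2 they gave 0.44 and 0.29. The chaperone Hspa5 differed by -0.10, the cochaperone Dnajb9 by -0.26 and the kinase Eif2ak3, or PERK, by -0.18 (SE 0.13).

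Stromal genes were higher on balance. Col1a1, the alpha 1 chain of type I collagen, read 12.37, 11.32, 12.30, 12.39 and 11.90 in the combination and 11.09, 12.01, 11.25, 10.89 and 11.11 in p19Arf, a difference of 0.79 (SE 0.35). It was high in 3 combination arrays and in p19Arf replicate 2. Mfap5, a microfibril protein, read 9.69, 9.44, 9.69, 9.15 and 9.10 against 8.99, 9.37, 8.86, 8.46 and 8.66, a difference of 0.55 (SE 0.21). Mfap4 differed by 0.41 (SE 0.14) and Fap, a protease of activated fibroblasts, by 0.33 (SE 0.13). Of 22 fibroblast and matrix genes 18 were higher with a median of 0.28, and 8 had an unadjusted p under 0.05. That count was 4 without replicate 1 and 5 without replicate 3 of the combination, 5 without p19Arf replicate 1 and 3 without p19Arf replicate 4, and the median without replicate 1 of the combination was 0.14. Lum, lumican, went the other way at -0.20.

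Endothelial markers were 16 of 18 higher with a median of 0.11. Plvap, the diaphragm protein of fenestrated endothelium, read 8.44, 8.35, 8.44, 8.91 and 8.62 in the combination and 8.12, 8.42, 8.14, 7.96 and 8.14 in p19Arf, a difference of 0.39 (SE 0.12) with 4 of 5 arrays above all of p19Arf. Plvap was named for its combination minus p19Arf difference, which the interaction contains. As a description with no test, its IFNbeta minus eGFP value was -0.01 and the interaction 0.41 (SE 0.17). Kdr, the main receptor for Vegfa, differed by 0.26 (SE 0.11) and Pecam1 by 0.22 (SE 0.11).

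Markers of host tissue around the implants varied widely between tumors. Skeletal muscle markers were 19 of 20 higher with a median of 0.25, but none had an unadjusted p under 0.05. The median was 0.07 without p19Arf replicate 3 (15 of 20 higher), 0.51 without replicate 3 of the combination and 0.57 with array weights; leaving out p19Arf replicate 1, 2 or 4 or replicate 2 or 5 of the combination also moved it by over 1.5 times. Acta1, skeletal muscle actin, read 9.66, 10.73, 8.22, 9.60 and 10.04 in the combination and 9.94, 10.24, 8.20, 8.67 and 9.20 in p19Arf, a difference of 0.40 (SE 0.46) well inside the spread. Their mean level ranged from 7.23 to 8.78 and from 7.16 to 8.62. Adipocyte markers were 9 of 12 higher with a median of 0.03, and 3 without replicate 3 of the combination or 4 without p19Arf replicate 2. Cd36, a fatty acid transporter, differed by 0.51 (SE 0.24) and Adipoq, adiponectin, by 0.02 (SE 0.30).

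Skin epidermis markers were 5 of 13 higher with a median of -0.05, and Krt5 differed by -0.08 (SE 0.40). Hair follicle keratins were 9 of 14 higher with a median of 0.02, a count that was 4 without replicate 3 and 5 without replicate 4 of the combination, 2 without p19Arf replicate 1 and 5 without p19Arf replicate 2; Krt25 differed by 0.03 (SE 0.14). Erythroid and platelet markers were 6 of 11 higher with a median of 0.01, and Pf4, platelet factor 4, differed by 0.36 (SE 0.19). The part of host tissue in the other differences was not tested.

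Respiratory chain genes leaned lower. Of 23, 21 were lower with a median of -0.14, and 2 of these had an unadjusted p under 0.05. That count was 4 without replicate 1 of the combination, 0 without its replicate 4 or 5, and 1 without p19Arf replicate 1, 3 or 4. Ndufs1, the largest subunit of complex I, read 9.95, 9.81, 9.77, 9.28 and 9.64 in the combination and 10.21, 10.01, 9.89, 9.84 and 9.83 in p19Arf, a difference of -0.27 (SE 0.12) with 4 of 5 arrays below all of p19Arf. Uqcrfs1, the iron-sulfur protein of complex III, differed by -0.24 (SE 0.12). The median without replicate 4 of the combination was -0.03 with 17 of 23 lower. Hypoxia and glycolysis genes were 14 of 18 lower with a median of -0.11. Bnip3, a mitophagy receptor, differed by -0.30 (SE 0.14), and -0.14 by a second probe set, whereas Vegfa differed by 0.30 (SE 0.16; 0.17 without replicate 4 of the combination) and Pfkfb3, a glycolytic regulator, by 0.26 (SE 0.14).

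Circadian clock genes were 8 of 16 higher with a median of -0.004. Per1, a core repressor of the clock, read 8.94, 9.15, 9.38, 9.60 and 9.92 in the combination and 8.76, 9.49, 8.86, 8.80 and 8.91 in p19Arf, a difference of 0.43 (SE 0.16), while the output genes Tef (-0.20, SE 0.09) and Dbp (-0.23, SE 0.12) were lower. The labels do not give the hour at which tumors were taken.

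**Figure D5:**
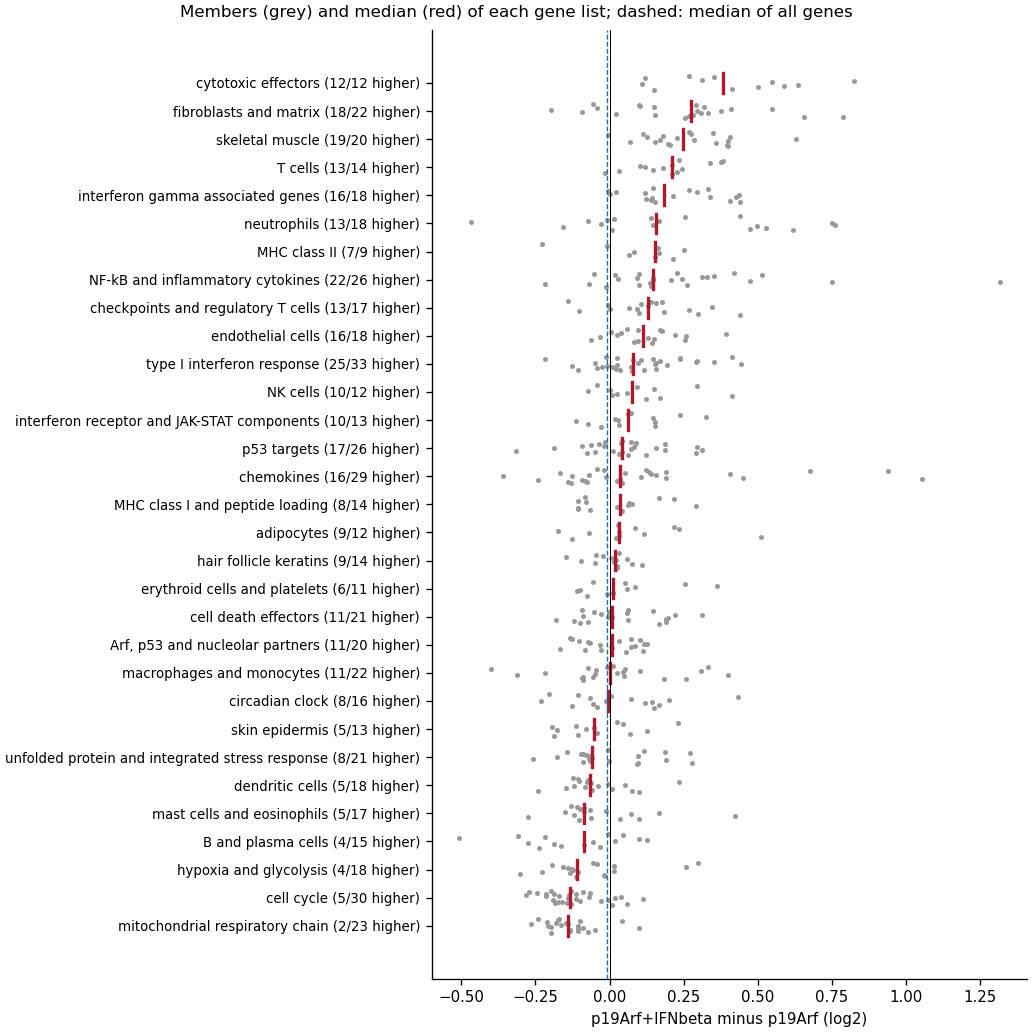
For each of 31 gene lists, grey points give the combination minus p19Arf (log2) of every measured member and the red bar their median, with the number higher of the number measured; the dashed line is the median of all genes (-0.01). Cytotoxic effectors (median 0.38) and fibroblasts and matrix (0.28) lie highest and the respiratory chain (-0.14) lowest, and members of most lists lie on both sides of 0.

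Outside the lists, the named genes with groups that did not overlap were mostly small in size. Tgfb1i1, a focal adhesion adaptor also called Hic-5, read 8.14, 7.96, 8.07, 8.06 and 8.02 in the combination and 7.60, 7.89, 7.65, 7.58 and 7.76 in p19Arf, a difference of 0.35 (SE 0.10). Ly6i, a Ly6 family surface protein, read 9.17, 8.67, 8.74, 8.53 and 8.26 against 8.18, 8.21, 8.16, 8.10 and 7.32, a difference of 0.68 (SE 0.24). The Ly6 family has close relatives, and probe sets may read more than 1. Arsi, an arylsulfatase, differed by 0.35 (SE 0.11), Plekhg1 by 0.31 (SE 0.09), Cds1, which makes CDP-diacylglycerol, by 0.30 (SE 0.09) and Abtb2 by 0.30 (SE 0.09). The others were Smpd5, Adamtsl1, Enpp3, Frrs1 and Prickle1, higher by 0.23 to 0.30. A second probe set of Adamtsl1 gave only 0.05.

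The lower genes with groups apart numbered 11 after predicted genes, chemosensory receptors, microRNAs and small nucleolar RNAs were left out. Many lower genes had low values. Over all genes 19 lower and 32 higher were apart, but 9 and 30 among the 17021 genes with a mean of at least 6. At an unadjusted p under 0.05 in limma, those 17021 gave 138 lower and 341 higher. Ctxn2, Adam29 and Smim9, below, did not reach that mean. Rny1, a non-coding Y RNA bound by the Ro autoantigen, read 8.41, 8.07, 8.26, 7.88 and 8.48 in the combination and 9.33, 8.54, 8.76, 9.88 and 8.79 in p19Arf, a difference of -0.84 (SE 0.21, 95% interval -1.28 to -0.40). It was the lowest value of all genes, and IFNbeta minus eGFP was -0.42. Ctxn2, cortexin 2, read 5.70, 5.74, 5.81, 5.83 and 5.85 against 6.05, 6.11, 5.98, 6.51 and 6.17, a difference of -0.38 (SE 0.10). Gpr119, a G protein-coupled receptor, differed by -0.37 (SE 0.12), Zfp850, a zinc finger protein, by -0.27 (SE 0.09) and Galnt15, a glycosyltransferase, by -0.26 (SE 0.08). Adam29, Chmp1a, Klhdc8a, Impg2, Smim9 and Sema4c were lower by less, from -0.23 to -0.11. The mean of 52 small nucleolar RNAs was 9.69 ± 0.49 (SD, n = 5) in the combination and 9.75 ± 0.36 (SD, n = 5) in p19Arf, and that of 1027 olfactory receptors 5.40 ± 0.09 and 5.51 ± 0.26, with exact permutation p of 0.857 and 0.476.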

How the data were processed

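Expression was measured on Affymetrix arrays. The deposited values are log2 expression per probe set, made with Affymetrix Expression Console and GCOS, per the submitters' processing notes; neither versions nor summarisation settings are stated there, and the log2 scale was read from the range, 2.33 to 14.7. Of 35556 probe sets, 21789 carried 1 gene symbol in the platform annotation, 1621 several and 12146 were unlisted; 91 symbols that could not be updated were kept. The probe set with the highest mean stood for each of 19938 genes, of which 999 had several. No values were altered and no low values were removed.

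Groups came from the sample titles. limma 3.58.1 (R 4.3.3) fitted 1 mean per group on all 20 arrays (16 residual degrees of freedom, prior 6.057) with Benjamini-Hochberg adjustment over all genes, and tested the combination minus p19Arf and its interaction with IFNbeta minus eGFP. The script was tested on simulated data. Tables were joined with Python 3.11.15 and pandas 2.3.3. The members and the 31 gene lists (572 measured entries) were chosen with earlier results of these data known. Named genes were Cdkn2a and Ifnb1, then genes passing the test, and, since none did, up to 12 in each direction with groups that did not overlap and the smallest p, leaving out predicted genes, chemosensory receptors, microRNAs and small nucleolar RNAs; then up to 4 members per list by smallest p, and fixed cell markers. Other list members are named where they show how a list divides, chosen after their values were seen. Hba-a1 and Isg15 were not measured. Arrays give no counts, and their number limits the precision. Alternatives covered moderation, array weights, normalization, a filter, probe-set choice, array spread and left-out arrays.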

Additional observations from a re-analysis of the deposited data

Results flagged for a closer look

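In 28 of 378 groups of 5 arrays, the highest or lowest array stood so far from the others that its gap took more than 0.71 of the group's range; chance marks about 1 in 20 groups. No explanation was weighed. Replicate 2 of p19Arf stood apart most often. It was high for Irf1 (11.2416), Nlrc5 (11.8499), Per1 (9.4882) and Smim9 (5.6395), and low for Tapbp (11.0853), Egln3 (11.7476), Sdhb (10.3011), the plasma cell gene Sdc1 (9.8605) and the lipid droplet gene Plin1 (6.8956).

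Replicate 3 of p19Arf was high for Ms4a1 (7.6528, others 5.26 to 5.88), the mean of B and plasma cell markers (8.3506), the mean of T-cell markers (7.8934) and Ncr1 (6.1951), and low for Impg2 (6.1512). Replicate 1 was low for Dbp (8.3419) and Krt28 (5.2754), replicate 4 high for Smpd5 (7.8927) and Mcpt1 (5.3152), and replicate 5 low for Ly6i (7.3204), Ripk3 (8.0176) and Cd244a (8.135).

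Replicate 1 of the combination was high for Gzma (9.3551, others 6.996 to 7.32) and Cd8b1 (9.4891, others 8.31 to 8.54) and low for Impg2 (5.8986). Replicate 4 was high for Ccl4 (8.6139) and Vegfa (11.2097), and replicate 5 low for Ripk3 (8.3327) and Gp5 (7.0271).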

How the results depend on the processing

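No alternative made any gene pass limma's test: the count was 0 of the genes tested in all 20, and the smallest adjusted p ranged from 0.0624 to 1. With the replicate block it was also 0. Same-numbered arrays of the 2 groups deviated together in some pairs and not in others (correlations -0.412 to 0.657). Of the 5 combination arrays, 2 correlated best with their own number. Genes at an unadjusted p under 0.05 numbered 612, against 1141 after quantile normalization, 1487 with array weights, 1532 with array spread as a covariate, 344 on the 10 arrays alone and 441 to 1922 with an array left out. Groups not overlapping numbered 51, 114 after quantile normalization, 79 to 487 with an array left out, and 1667 without the 5 arrays of lowest spread, a setting chosen after seeing the data; fewer arrays overlap less by construction. List medians changed sign 54 times, in 14 of 31 lists: circadian clock and hair keratins 8 each, erythroid 7, macrophages 6, Arf partners 5, cell death, stress response and adipocytes 4 each, MHC class I 3, and p53 targets, chemokines, NK, B and mast cells 1 each. Medians that moved by more than the spread between replicates were, without those 5 arrays, interferon gamma genes (0.3724), MHC class I (0.1340) and mast cells (0.0069), and, with array weights, B and plasma cells (-0.5491).

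For the named genes 3103 values kept their direction and 29 turned; the cause was not tested. With array weights Ifnb1 gave -0.0382, Adgre1 0.0691, Cpa3 -0.0966 and Adipoq -0.0359, and with median centring Adipoq gave -0.0042. Without the 5 arrays Pes1 gave 0.0568, Ndufb8 0.0202, Krt28 -0.0098, Adgre1 0.2038, Cpa3 -0.1439 and Adipoq -0.2568. With an array left out the ranges were -0.0963 to 0.0479 for Cdkn2a, -0.0649 to 0.0845 for Ifnb1, -0.0264 to 0.5635 for Gzma, -0.0020 to 0.2239 for Krt28, -0.2392 to 0.0875 for Adgre1, -0.0434 to 0.2571 for Cpa3, -0.0342 to 0.0700 for Krt25 and -0.1201 to 0.2407 for Adipoq.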
